A study of Mus musculus with 6 samples.

Results

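The genes for the proteins of the cytosolic ribosome were followed in group 2 innate lymphoid cells (ILC2s) of the mouse lung cultured with melatonin or with its solvent. Members were the protein-coding genes whose symbols begin with Rpl (large subunit) or Rps (small subunit) followed by a digit or by a, together with Rplp0, Rplp1 and Rplp2, and without pseudogenes, the Rps6k kinases and Rps19bp1. The annotation held 89 such genes, of which 87 were among the 16381 genes with a value and 86 (52 large, 34 small) passed the filter on low values. Rpl3l and Rpl10l had no value in the table, and Rps23rg1 was listed at 4.41 to 7.08 normalised counts in vehicle and 1.50 to 1.62 in melatonin, below the filter of 10. Cells came from wild-type BALB/cJ mice, described as females aged 6 to 8 weeks, that received 0.5 µg of recombinant murine IL-33 intranasally per day for 3 days. Activated ILC2s (aILC2s: CD45+, lineage−, ST2+, CD127+) were sorted from the lungs and cultured for 24 h in IL-2 and IL-7 with 250 µM melatonin (3 samples) or an equal volume of DMSO (vehicle, 3 samples), so that both groups carry the IL-33 challenge and the cytokines. The sources do not say how many mice stand behind each sample, and p-values then measure only the spread between these samples.

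Each ribosome holds a single copy of nearly every ribosomal protein, so the cell has to make these proteins in matched amounts. Their mRNAs are short and abundant, and typically begin with a cytosine followed by a run of pyrimidines, the 5′ terminal oligopyrimidine (TOP) motif, through which mTOR signalling and the RNA-binding protein LARP1 control their translation and stability. Lymphocytes that are activated and begin to grow raise ribosome production. In mammalian genomes these genes are also the source of very many processed pseudogenes, near-identical copies made by reverse transcription of the mRNA.

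The start of the transcript was read for the members from RefSeq promoters of GRCm38.p6, since this motif is the regulatory sequence the members share by description. A start was given for 64 of the 87 listed members. A C at the first base followed by at least 4 bases of C or T (transcribed strand only) was present in 14 of them, 21.9%, and in 3.01% of all 27025 symbols with a RefSeq start. The motif was required at the annotated first base exactly, so a start placed a few bases away counts as no match. The following windows run from 10 bases before the start to 20 bases from it, with the pyrimidine run in capitals, and show 3 large and 3 small subunit genes.
Rpl15 (chr14:18270967-18270996, minus strand): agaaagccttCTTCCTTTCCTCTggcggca
Rpl35 (chr2:39005112-39005141, minus strand): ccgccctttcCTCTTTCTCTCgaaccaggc
Rplp2 (chr7:141447641-141447670, plus strand): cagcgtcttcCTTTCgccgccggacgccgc
Rps6 (chr4:86857348-86857377, minus strand): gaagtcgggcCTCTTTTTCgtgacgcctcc
Rps10 (chr17:27635225-27635254, minus strand): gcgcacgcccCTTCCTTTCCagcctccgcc
Rps21 (chr2:180257369-180257398, plus strand): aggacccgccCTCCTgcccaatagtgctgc

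Each sample held between 17056267 and 20511700 estimated counts. The libraries differed in ways that the treatment does not name. Melatonin libraries carry the numbers 20 to 22 in their labels and vehicle libraries 32 to 34, and any batch running with that numbering cannot be told apart from melatonin itself. Although the mice were described as female, Y-linked transcripts such as Eif2s3y were present in the vehicle samples (1230 to 1363 normalised counts) and in melatonin replicate 1 (946), and were at 0 in melatonin replicates 2 and 3, in which Xist stood at 579 and 1091. All 12 ILC2 markers were listed, with Gata3 at 19365 ± 321 normalised counts in vehicle (mean ± SD, n = 3) and 20469 ± 3605 in melatonin. Summed levels of several markers of other cells also differed between the groups, and are given as levels without a test. Summed over 6 myeloid markers, the level was 1157 to 1373 in vehicle and 256 to 699 in melatonin, and over the 4 listed of 7 T cell markers it was 6035 to 6556 and 2127 to 3172, with Cd4, Cd5 and Cd8a not listed. The 5 epithelial markers summed to 919 to 2260 and 1025 to 1236 (Krt8 at 0 in melatonin). They did not move alike. Sftpc, a surfactant protein gene, was at 155, 122 and 389 in vehicle and 6.54, 5.46 and 3.02 in melatonin. Epcam, the 1 of the 5 that was higher with melatonin, was at 623, 745 and 634 in vehicle and 1230, 1016 and 1046 in melatonin. The 2 NK markers summed to 109 to 121 and 0 to 1.01 (Klrb1c at 0 in melatonin), and Pecam1, the 1 listed of 2 endothelial markers, was at 1001 to 1066 and 310 to 416. B cell and granulocyte markers summed to at most 37.2, the 2 erythroid markers to at most 51.3, and no fibroblast marker was listed. The part of these cells in the results below was not tested.

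Ribosomal protein transcripts took a smaller portion of every melatonin sample than of any vehicle sample. All members together took 1.48%, 1.33% and 1.38% of the normalised counts in vehicle replicates 1, 2 and 3, and 0.591%, 0.711% and 0.883% in melatonin replicates 1, 2 and 3. The means were 1.40 ± 0.0757% (SD, n = 3) and 0.728 ± 0.147%, a vehicle level 1.92 times the melatonin level. The groups did not overlap. This share is a sum over members chosen with earlier results of these data known, so it is given without a test. In bulk samples, fewer cells of a type and less RNA per cell cannot be told apart, and a share says nothing of the total RNA in a cell. The large subunit genes took 0.760 ± 0.0372% in vehicle and 0.413 ± 0.0843% in melatonin, and the small subunit genes 0.638 ± 0.0388% and 0.315 ± 0.0628%.

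**Figure D1:**
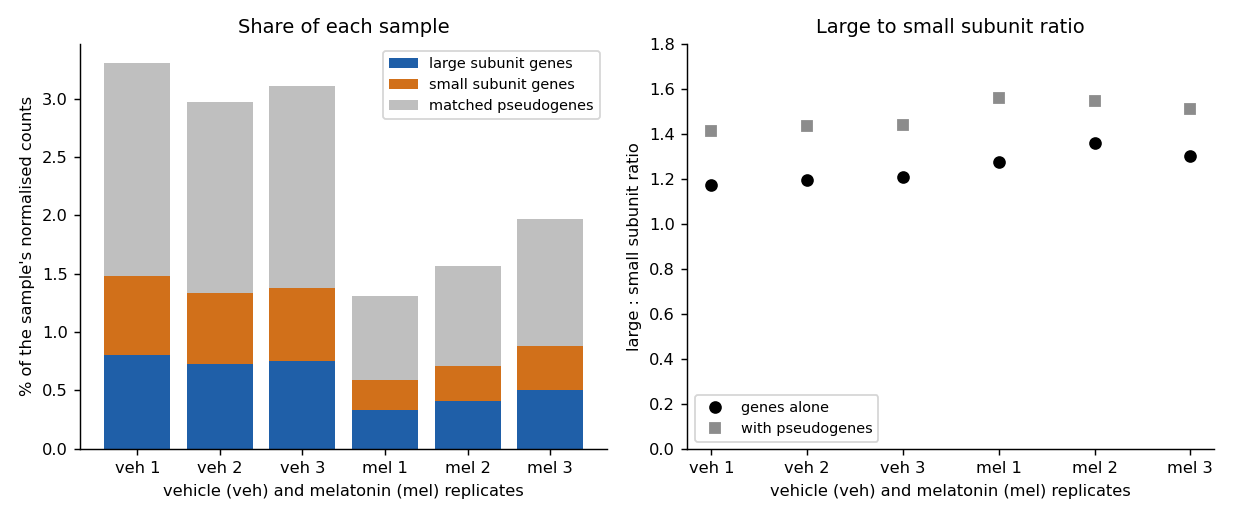
Left, percent of each sample's normalised counts in large subunit genes, small subunit genes and pseudogenes matched to them, stacked, for each of the 3 vehicle and 3 melatonin replicates. Right, the sum over large subunit genes divided by the sum over small subunit genes in the same samples; every melatonin sample lies below every vehicle sample in share and above it in the ratio.

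Gene by gene, 84 of the 86 members tested were lower with melatonin and 0 were higher (limma, Benjamini-Hochberg adjusted p under 0.05 over 14419 genes). Over all genes tested, 24.7% were called lower and 24.5% higher. No member was higher at an unadjusted p under 0.05 or with voom. In the same 84 members every melatonin value lay below every vehicle value, which held for 30.3% of all genes. The median log2 fold change over members was −1.07 (quartiles −1.24 and −0.89), against a median of −0.00 (quartiles −0.50 and 0.41) over all genes. Fold changes were also alike from member to member. Their SD on the log2 scale was 0.32 over all 86, and 0.22 over the 77 members that are neither diverged paralogs nor retrogenes. Over all genes, which were not matched to the members in level, it was 0.98. All 77 were called lower, with log2 fold changes between −1.52 and −0.64. Of the 84, 75 were called in each of 24 alternative fits that tested them, and the 84 kept a negative fold change in every such fit. Removing the dependence on transcript length from each sample moved the median to −0.83 and left 78 called lower.

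**Figure D2:**
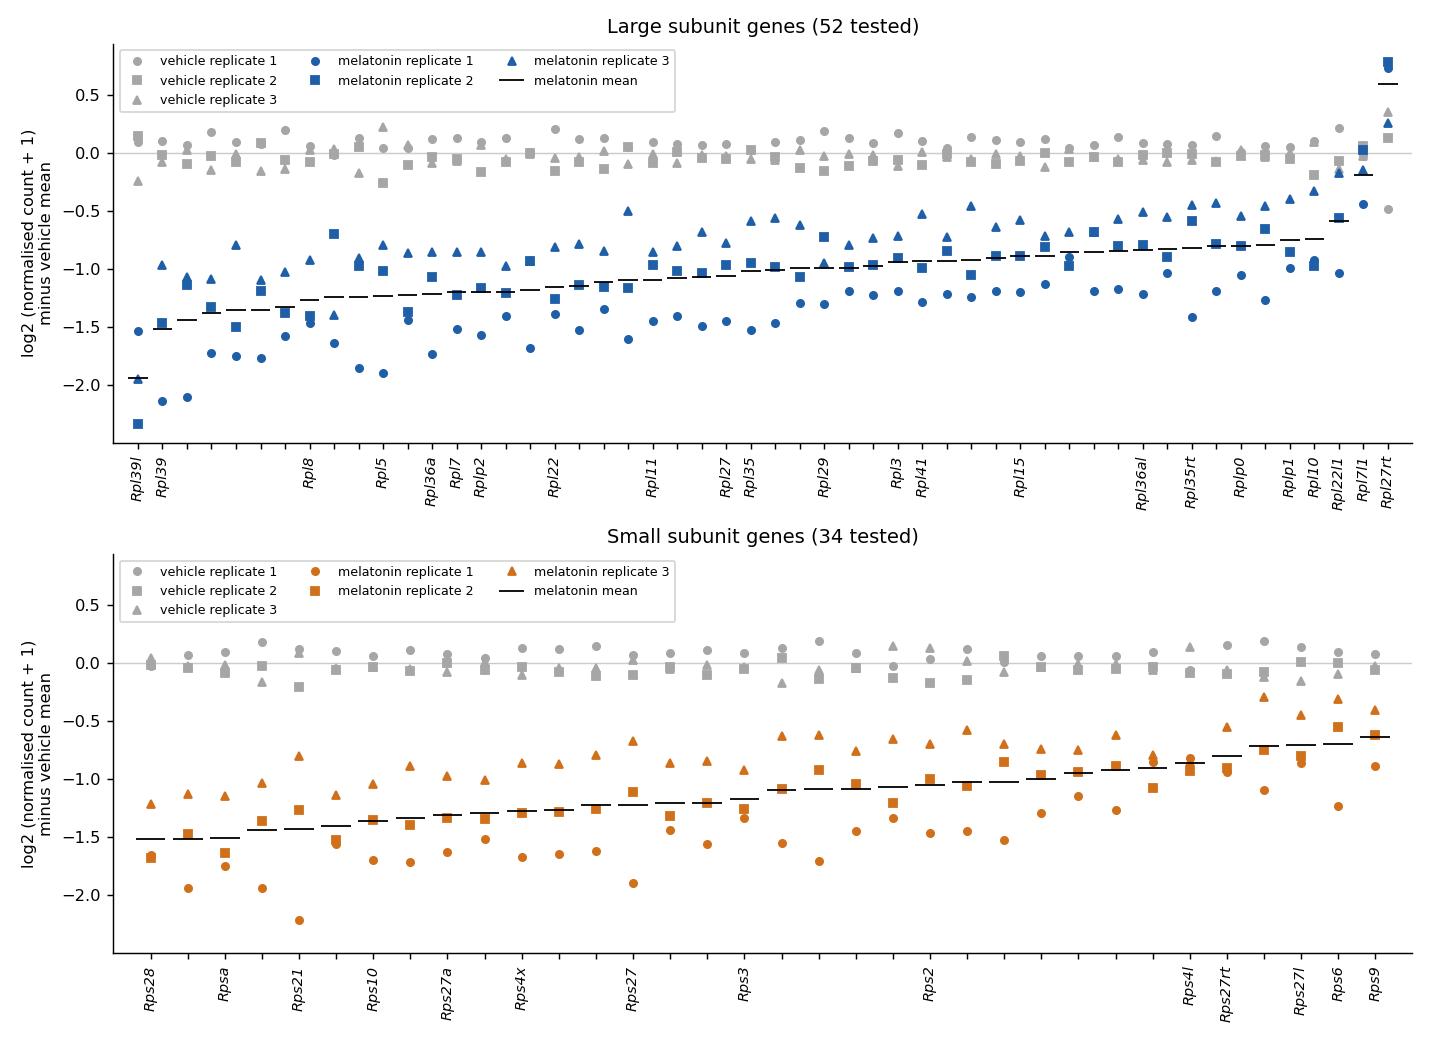
Log2 (normalised count + 1) of each tested member in each sample, relative to the mean of the 3 vehicle samples of that gene, for 52 large (top) and 34 small (bottom) subunit genes ordered by fold change, with names under those described in the text. Grey symbols are vehicle replicates, coloured symbols melatonin replicates and black bars the melatonin mean; apart from Rpl7l1 and Rpl27rt at the right end of the upper panel, the melatonin symbols of every gene lie below its vehicle symbols.

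The members also moved together within the melatonin group. Melatonin replicate 1 was the lowest of its group in 79 of 86 members and replicate 3 the highest in 79. The share of all genes with this order was not counted, and the order is not particular to the members. Outside them, Eef1a1 (27451, 29734 and 37571 in melatonin replicates 1, 2 and 3) and Npm1 (2046, 2641 and 2979) had it. Eef2 (15107, 11479 and 14480) did not. The median deviation from the vehicle mean was −1.44 in melatonin replicate 1, −1.02 in replicate 2 and −0.77 in replicate 3 (log2 scale), whereas the vehicle replicates stayed between −0.06 and 0.09. The coefficient of variation between melatonin samples had a median of 23.2% over members with a mean of at least 100, against 10.6% over all genes with such a mean, and the corresponding vehicle values were 6.57% and 5.96%. Melatonin replicate 1 is the only melatonin sample that, like the vehicle samples, held Y-linked transcripts. Without it the median log2 fold change was −0.89 with 83 members called lower, and without replicate 3 it was −1.24 with 84.

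The 2 subunits differed slightly. The median log2 fold change was −1.01 over 52 large and −1.13 over 34 small subunit genes (50 and 34 called lower), and −1.07 and −1.20 without paralogs and retrogenes (46 of 46 and 31 of 31). The sum over large divided by the sum over small subunit genes was 1.17, 1.20 and 1.21 in vehicle and 1.27, 1.36 and 1.30 in melatonin. The groups did not overlap in this ratio, and the melatonin mean was 1.10 times the vehicle mean (1.31 ± 0.0449 against 1.19 ± 0.0177). Like the share, the ratio is given without a test. With matched pseudogenes added to each gene the ratio was 1.43 ± 0.0158 and 1.54 ± 0.0247, again without overlap. The difference in medians was no longer seen once transcript length had been removed, where both subunits stood at −0.83, nor after quantile normalisation, where they were −1.07 and −1.08.

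The stalk of the large subunit recruits the elongation factors and consists of Rplp0 with the acidic proteins encoded by Rplp1 and Rplp2. Rplp0 (chr5:115694515-115701793, GRCm39) was at 11511, 11231 and 11697 normalised counts in vehicle replicates 1, 2 and 3 and at 5519, 6574 and 7892 in melatonin replicates 1, 2 and 3 (log2 fold change −0.80 ± 0.12 (SE), adjusted p = 0.000886). Rplp1 was at 4686, 4343 and 4520 in vehicle and 2273, 2493 and 3430 in melatonin (log2 fold change −0.75 ± 0.14 (SE), adjusted p = 0.00255), and with transcript length removed its log2 fold change was −0.32 (adjusted p = 0.0141). Rplp2, one of the genes with a pyrimidine start, was at 2723, 2282 and 2673 in vehicle and 857, 1139 and 1410 in melatonin (log2 fold change −1.20 ± 0.17 (SE), adjusted p = 0.000586). In all 3 the lowest vehicle sample stood above the highest melatonin sample, and the fall was greatest for Rplp2.

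Rpl5 and Rpl11 bind the 5S ribosomal RNA before it joins the large subunit, and in surplus they bind Mdm2, the ubiquitin ligase of p53. Rpl5 (chr5:108048367-108058471) was at 191, 156 and 217 normalised counts in vehicle and 49.3, 91.6 and 107 in melatonin (log2 fold change −1.23 ± 0.29 (SE), adjusted p = 0.00714). Rpl11 (chr4:135753967-135780818) was at 389.5, 343 and 363 in vehicle and 133, 186 and 201 in melatonin (log2 fold change −1.09 ± 0.17 (SE), adjusted p = 0.00104). The groups overlapped for neither gene, and pseudogenes held 98.8% of the normalised counts of the Rpl5 family and 91.5% of those of the Rpl11 family in vehicle.

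Among small subunit genes, Rps6 encodes the protein that the S6 kinases phosphorylate downstream of mTOR. It was at 2198, 2069 and 1927 in vehicle and 881, 1407 and 1669 in melatonin (log2 fold change −0.69 ± 0.20 (SE), adjusted p = 0.0194), one of the smallest falls. Its adjusted p was between 0.00301 and 0.0827 over 24 alternative fits and passed in 19; without vehicle replicate 1 it was 0.0569 and without vehicle replicate 2 it was 0.0596. The log2 fold change of Rps6 was −0.43 without melatonin replicate 1. Rpsa, whose product is also known as a laminin receptor, was at 11293, 9928 and 10450 in vehicle and 3136, 3391 and 4772 in melatonin (log2 fold change −1.51 ± 0.15 (SE), adjusted p = 0.00012). Rps27a, whose product is made as a fusion to ubiquitin, was at 975, 923 and 873 in vehicle and 299, 365 and 469 in melatonin (log2 fold change −1.31 ± 0.16 (SE), adjusted p = 0.000302).

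Rpl39, Rps28 and Rpsa were among the 5 greatest falls. Rpl39, which encodes a small protein lining the exit tunnel of the large subunit, was at 2132, 1956 and 1873 in vehicle and 450.1, 720.0 and 1017 in melatonin (log2 fold change −1.52 ± 0.24 (SE), adjusted p = 0.00118). The vehicle mean was 2.73 times the melatonin mean. Rps28 was at 139, 139 and 145 in vehicle and 44.2, 43.4 and 60.4 in melatonin (log2 fold change −1.51 ± 0.20 (SE), adjusted p = 0.000453). At the other end of the called members that are neither paralogs nor retrogenes, Rps9, which is needed early in the assembly of the small subunit, was at 9784, 8886 and 9119 in vehicle and 5000, 6027 and 6978 in melatonin (log2 fold change −0.64 ± 0.12 (SE), adjusted p = 0.00242), still without overlap. Its vehicle mean was 1.54 times the melatonin mean.

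Rpl7l1 and Rpl27rt were not called. Rpl7l1, a diverged paralog of Rpl7 that acts in large subunit assembly, was at 4930, 5221 and 4912 in vehicle and 3703, 5097 and 4528 in melatonin (log2 fold change −0.19 ± 0.11 (SE), adjusted p = 0.194). Melatonin replicate 2 lay among the vehicle values. Rpl7 itself was at 9081, 8014 and 7918 in vehicle and 2914, 3555 and 4610 in melatonin (log2 fold change −1.20 ± 0.15 (SE), adjusted p = 0.00038). Rpl27rt, a retrogene of Rpl27, was scarcely detected, at 8.75, 13.9 and 16.5 in vehicle and 21.6, 22.5 and 15.3 in melatonin (log2 fold change 0.59 ± 0.38 (SE), adjusted p = 0.22), and the groups overlapped. Leaving out 1 sample at a time gave log2 fold changes of −0.29 to −0.06 for Rpl7l1 and 0.35 to 0.77 for Rpl27rt.

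Paralogs with a ribosomal protein of their own were followed pair by pair. Rpl22 was at 1646, 1282 and 1391 in vehicle and 546, 599 and 815 in melatonin (log2 fold change −1.15 ± 0.16 (SE), adjusted p = 0.000559), and its paralog Rpl22l1 was at 599.6, 491 and 469 in vehicle and 252, 351 and 459 in melatonin (log2 fold change −0.59 ± 0.21 (SE), adjusted p = 0.041). The Rpl22l1 call was the least stable among the named members: the adjusted p ranged from 0.00885 to 0.477 over 24 alternative fits and passed in 11, and it was lost on leaving out any one of the vehicle samples or melatonin replicate 1 or 2. Without melatonin replicate 1 the log2 fold change of Rpl22l1 was −0.36. Rpl39l, the testis-enriched paralog of Rpl39, was at 28.0, 29.0 and 22.0 in vehicle and 8.40, 4.37 and 6.03 in melatonin, a ratio of the means of 4.21. It passed the filter of 10 only through vehicle, so its call, counted among the 84, is given no test here, and its log2 fold change depends on the pseudocount (−1.94 with 1 and −1.16 with 10). Rps27 was at 126, 112 and 123 in vehicle and 31.6, 55.2 and 75.3 in melatonin (log2 fold change −1.22 ± 0.30 (SE), adjusted p = 0.00901), and Rps27l, a p53 target gene, was at 5141, 4709 and 4203 in vehicle and 2565, 2678 and 3420 in melatonin (log2 fold change −0.70 ± 0.12 (SE), adjusted p = 0.00182). With transcript length removed, the log2 fold change of Rps27l was −0.27. Its call was lost when the replicate block was added to that fit (adjusted p = 0.0740). Per kb of coding sequence, the vehicle level was 18370 for Rps27l and 472 for Rps27, whose reads may be divided with its retrogene Rps27rt at 13544. Rpl36al was at 7973, 7463 and 7210 in vehicle and 3250, 4347 and 5302 in melatonin (log2 fold change −0.84 ± 0.15 (SE), adjusted p = 0.00245), a vehicle level per kb of 23516 against 1089 for Rpl36a with each gene alone, and of 23807 against 5466 with the counts of matched pseudogenes added. Rps4l was at 373, 368 and 430.2 in vehicle and 221, 204 and 216 in melatonin (log2 fold change −0.86 ± 0.12 (SE), adjusted p = 0.000604). In none of these pairs did one gene rise while the other fell.

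Rpl10, Rpl36a, Rpl39 and Rps4x lie on chromosome X. The donor sex that Xist and the Y-linked transcripts mark differs between melatonin samples and also between the groups. Y-linked transcripts were present in every vehicle sample and in melatonin replicate 1, and absent from melatonin replicates 2 and 3. The part of donor sex in the fold changes below was not tested. Rps4x (chrX:101228542-101233014) was at 7774, 6936 and 6631 in vehicle and 2233, 2905 and 3904 in melatonin (log2 fold change −1.27 ± 0.18 (SE), adjusted p = 0.00058). Rpl36a (chrX:133486372-133488901) was at 379, 341 and 329 in vehicle and 105, 166 and 193 in melatonin (log2 fold change −1.22 ± 0.22 (SE), adjusted p = 0.00197). Rpl10 (chrX:73314418-73316741) was at 233, 190.4 and 232 in vehicle and 114, 110.2 and 173 in melatonin (log2 fold change −0.74 ± 0.20 (SE), adjusted p = 0.0143), and its call was lost without vehicle replicate 1, vehicle replicate 3 or melatonin replicate 2 (adjusted p of 0.0523, 0.0586 and 0.0509; range over 24 alternative fits 0.000368 to 0.0586). The call was also lost with transcript length removed (log2 fold change −0.45, adjusted p = 0.0552), and it passed in 19 of the 24. Melatonin replicate 1, which had no Xist transcripts, was the lowest of its group in Rps4x, Rpl36a and Rpl39 but not in Rpl10, and it was so in 79 of all 86 members tested.

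Processed pseudogenes held a large part of the reads of these families. The authors' algorithm divides a read that matches several genes among them, so the value of a gene and those of its copies are not independent. Listed pseudogenes were matched to members by sequence (at least 90% identity over at least 50% of the coding sequence), which gave 418 pseudogenes for 77 members, with a median identity of 97.9%. They took 1.73 ± 0.0908% of normalised counts in vehicle and 0.885 ± 0.187% in melatonin, more than the genes themselves. In vehicle the pseudogenes of 43 members held more than the gene, and those of 17 held over 90% of the family. The first 60 bases of 3 coding sequences (GRCm39) show how close such copies are. Capitals mark a base at which gene and pseudogene differ, and positions count from 1 at the A of the start codon.
Rpl3 (chr15:79961825-79976069, minus strand, spliced): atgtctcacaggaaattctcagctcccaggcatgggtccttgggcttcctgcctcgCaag
Rpl3-ps1 (chrX:13068811-13068870, plus strand): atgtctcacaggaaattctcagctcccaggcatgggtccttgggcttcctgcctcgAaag
Rpl5 (chr5:108048367-108058471, plus strand, spliced) and Gm15500 (chr7:114305339-114305398, minus strand): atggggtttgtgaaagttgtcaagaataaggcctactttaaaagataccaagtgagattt
Rpl10 (chrX:73314418-73316741, plus strand, spliced) and Rpl10-ps3 (chr9:50256182-50256241, minus strand): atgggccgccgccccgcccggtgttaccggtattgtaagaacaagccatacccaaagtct

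The window of Rpl3 and Rpl3-ps1 held the single substitution C57A, and over 1209 aligned bases there were 2 mismatches, whereas Gm15500 and Rpl10-ps3 matched the whole coding sequences of Rpl5 (894 bases) and Rpl10 (645 bases) without a mismatch. Values followed the copies. Rpl3 was at 1602, 1368 and 1319 in vehicle and 626, 759 and 865 in melatonin (log2 fold change −0.94 ± 0.13 (SE), adjusted p = 0.000636), and Rpl3-ps1 at 17744, 16981 and 16432 in vehicle and 7438, 8606 and 10045 in melatonin (log2 fold change −0.98 ± 0.11 (SE), adjusted p = 0.00024). Gm15500 was at 16453, 15655 and 14474 in vehicle and 4939, 6319 and 7336 in melatonin (log2 fold change −1.34 ± 0.13 (SE), adjusted p = 0.000148), far above Rpl5 over the same coding sequence. Rpl10-ps3, at 14656, 13409 and 13350 in vehicle and 6301, 6489 and 8526 in melatonin (log2 fold change −0.97 ± 0.12 (SE), adjusted p = 0.000332), was likewise far above Rpl10. The most extreme family was that of Rps2, a gene at 343, 297 and 366 in vehicle and 121, 167 and 206 in melatonin (log2 fold change −1.05 ± 0.20 (SE), adjusted p = 0.00273), whose 30 pseudogenes held 99.0% of the family.

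Of 325 matched pseudogenes tested, 214 were called lower and 0 higher, with a median log2 fold change of −1.06. Over all genes tested, 24.7% were called lower and 24.5% higher. Pseudogenes with low values may have passed the filter of 10 only through vehicle. Of the 114 with a mean of at least 100 normalised counts, 113 were lower (median −1.08). Since reads are divided between a gene and its copies, the calls of pseudogenes are not separate from those of the genes. With the pseudogenes added to each gene, 83 members were called lower with a median of −1.07. Rpl22l1 was the call lost (log2 fold change −0.54, adjusted p = 0.0629). Rpl10 with its copies stood at −0.97 (adjusted p = 0.000370) and Rps6 with its copies at −0.71 (adjusted p = 0.00312). Of the 23 members with under 10% of their summed counts in pseudogenes, 21 were lower (median −0.94), and of the 43 with over 50%, 43 were lower (median −1.08). Of 9 tested members for which a matched pseudogene was not found, 8 were lower (median −1.17, SD over genes 0.72), among them Rps3 (−1.17) and Rpl8 (−1.26), and the ninth was Rpl27rt. Rpl39l, counted among the 21 and the 8, passed the filter only through vehicle, and its call is given no test here. The retrogenes Rps27rt (−0.80) and Rpl35rt (−0.82), called lower too, are copies of Rps27 and Rpl35, so reads may have been divided between them and their levels are uncertain.

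Levels of different members were compared per kilobase of coding sequence. Among the 77 members without paralogs and retrogenes, vehicle levels of the gene alone ran from 92.1 normalised counts per kb of coding sequence for Rpl29 to 50985 for Rpl41, with an SD of 2.00 on the log2 scale. With pseudogenes added, the SD was 0.97 and the quartiles were 7844 and 16390, about a median of 10946. Rps2 moved from 380.0 to 36207, Rpl5 from 210.2 to 17893 and Rpl29 from 92.1 to 5421. Rps27 was then lowest, at 600.2, without the reads of its retrogene Rps27rt (13544). Rpl41 remained highest, although its coding sequence of 141 bases is so short that reads from its untranslated parts weigh heavily. Of all members tested, Rpl27rt (27.0), Rpl29 and Rpl39l (169) had the lowest levels per kb of the gene alone, and Rpl41 and Rpl36al (23516) were among the 3 highest. Rpl41 was at 7683, 6656 and 7227 in vehicle and 2937, 3619 and 4968 in melatonin (log2 fold change −0.94 ± 0.17 (SE), adjusted p = 0.00205), and Rpl29 was at 50.5, 39.6 and 43.4 in vehicle and 17.4, 26.4 and 22.5 in melatonin (log2 fold change −0.99 ± 0.28 (SE), adjusted p = 0.0168). The fold changes of Rpl41 and Rpl29 lay close to the median of the members, unlike those of Rpl27rt and Rpl39l. With transcript length removed, Rpl41 was further from it, at −0.51 against a median of −0.83. The Rpl29 call was lost without vehicle replicate 1, with an adjusted p of 0.0727 (range over 23 alternative fits 0.00135 to 0.0727).

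**Figure D3:**
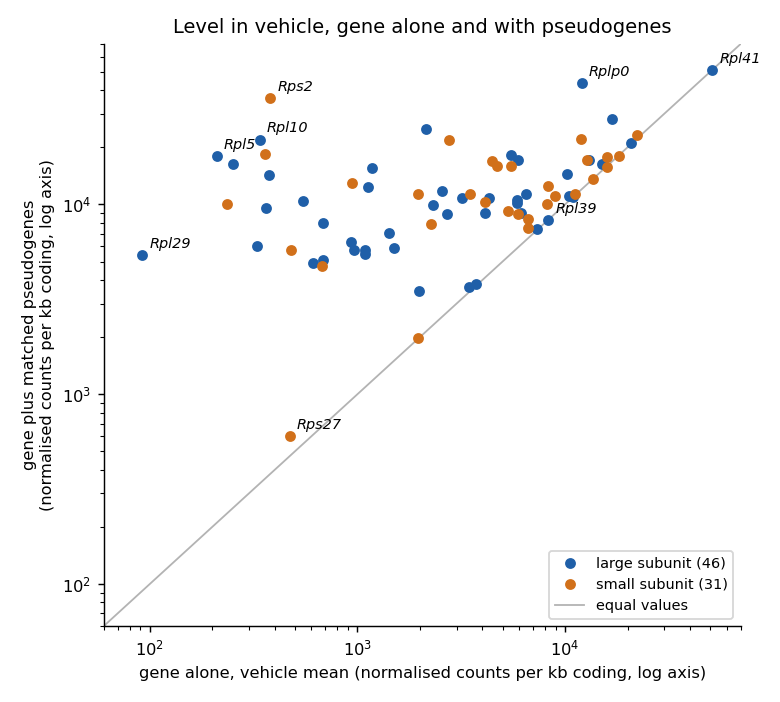
Vehicle mean of each of 77 members in normalised counts per kb of coding sequence (log axes), for the gene alone (x) and with its matched pseudogenes added (y); blue, large subunit, orange, small subunit, grey line, equal values. Members spread widely along x, as from Rpl29 to Rpl41, and much less along y, where most lie near 10946, the median.

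Across members, the log2 fold change had only weak rank relations to level (Spearman 0.16), coding length (0.13), transcript length (−0.07) and transcript GC content (0.12), given as descriptions over 86 genes that share the same libraries. By pyrimidine start, the median log2 fold change was −1.08 over the 14 members with it and −1.07 over 49 tested members with a RefSeq start and no match, among which the annotated first base may be displaced. Among tested genes that are not members, the median was 0.01 over 282 genes with such a start (28.7% called lower) and 0.04 over 9499 without (23.3% called lower).

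Other genes of the ribosome and of translation were taken from fixed lists. Fau, whose product is a fusion of a small subunit protein to a ubiquitin-like sequence, and Rack1, a scaffold on the small subunit, are ribosomal proteins outside the naming rule, and both were lower. Fau was at 688, 689 and 595 in vehicle and 238, 307 and 354 in melatonin (log2 fold change −1.15 ± 0.15 (SE), adjusted p = 0.000507), and Rack1 at 16595, 16103 and 15838 in vehicle and 5024, 5942 and 6733 in melatonin (log2 fold change −1.47 ± 0.11 (SE), adjusted p = 3.59e-05). Of 21 other mRNAs known for a TOP motif, mostly elongation and initiation factors, 21 were lower with a median of −0.78. They included Eef1a1, which delivers aminoacyl-tRNA (53718 ± 2517 in vehicle and 31585 ± 5308 in melatonin, mean ± SD, n = 3; log2 fold change −0.78 ± 0.12 (SE), adjusted p = 0.00105), Eef2, the translocase (log2 fold change −0.70 ± 0.11 (SE), adjusted p = 0.0011), and Npm1, a nucleolar chaperone (log2 fold change −1.35 ± 0.13 (SE), adjusted p = 0.000114). The smallest fall in this list was that of Eif3m (−0.30, adjusted p = 0.0254).

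The lists of genes that make ribosomes and control their translation are read against all genes tested, of which 24.7% were called lower and 24.5% higher. Of 14 chaperones and importers of ribosomal proteins, 11 were lower and 1 was higher (median −0.61). Nle1, an assembly factor of the large subunit (log2 fold change −1.10 ± 0.14 (SE), adjusted p = 0.000464), and Grwd1, a chaperone of Rpl3 (log2 fold change −1.00 ± 0.10 (SE), adjusted p = 0.000179), fell most, whereas Aamp rose (log2 fold change 0.44 ± 0.10 (SE), adjusted p = 0.00728). Of 14 RNA polymerase I genes, which transcribe the ribosomal RNA precursor, 7 were lower and 0 higher (median −0.26), with Polr1a, the largest subunit, at log2 fold change −0.88 ± 0.12 (SE), adjusted p = 0.000609, and Ubtf, its activator, at −0.05 (adjusted p = 0.659). Of 14 genes that control TOP mRNAs, 5 were lower and 2 higher (median −0.14), for the lower calls a share near that of all genes. Rptor, the mTORC1 scaffold, was at 1007, 1055 and 1115 in vehicle and 553, 549.6 and 572 in melatonin (log2 fold change −0.92 ± 0.09 (SE), adjusted p = 0.000109), Mtor at −0.50 (adjusted p = 0.00885) and Larp1 at −0.42 (adjusted p = 0.0373), while Tsc2, an inhibitor of the pathway, and Rheb, its activator, rose (0.32, adjusted p = 0.0138, and 0.25, adjusted p = 0.03). The 78 proteins of the mitochondrial ribosome, encoded by Mrpl and Mrps genes and not part of the cytosolic particle, counted 38 lower and 3 higher (median −0.25), and their summed share was 0.561 ± 0.0182% in vehicle and 0.480 ± 0.0393% in melatonin.

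**Figure D4:**
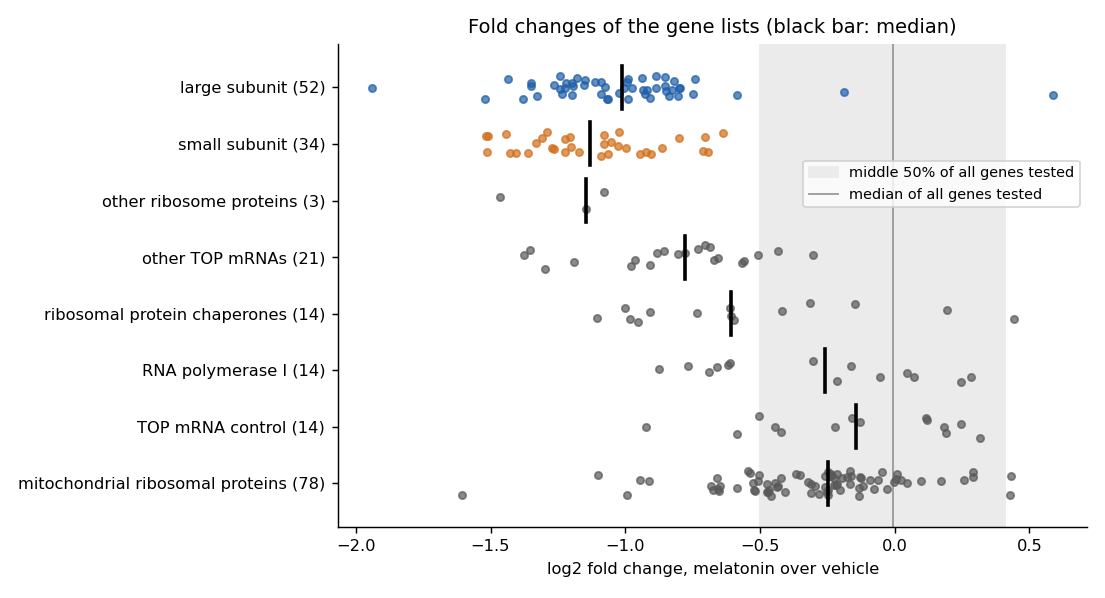
Log2 fold changes (melatonin over vehicle) of the genes of each list, 1 point a gene, with the number tested in parentheses, the list median as a black bar, and the middle 50% and median of all 14419 genes tested in grey. Medians run from −1.13 for small subunit genes and −1.15 for other ribosome proteins to −0.14 for the genes that control TOP mRNAs.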

How the data were processed

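Bulk RNA sequencing of 6 samples gave 1 table of normalised counts. The authors used Partek Flow for trimming, STAR for alignment to mm39 and the Partek E/M algorithm for Gencode genes, removed genes with few counts and divided each sample by a median-ratio size factor; the deposited values are treated as a signal, since only 65.1% to 67.5% of values per sample were whole multiples of 1 read (tolerance 0.01). The cDNA kit does not mark strand. Depth sets counting error only.

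Gene names, GRCm39 positions and lengths came from annotation release M39 (16334 of 16381 genes matched). The limma test (3.58.1, R 4.3.3; lmFit, eBayes with trend) used log2(value + 1), genes reaching 10 normalised counts in any sample, and Benjamini-Hochberg adjustment over 14419 genes at 0.05; folds on this scale understate changes of low genes. The script was tested on simulated data. Levels between genes use coding length, because annotated transcript ends of these genes are often extended. Pseudogenes were matched with BLAST 2.17.0. Other tools were pandas 2.3.3, numpy 2.4.6, scipy 1.17.1 and matplotlib 3.10.9. RefSeq starts came from GRCm38.p6 and were not mixed with GRCm39 positions.

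Named members were the stalk, the 5S particle, Rps6, Rpsa, Rps27a, X-linked members, paralog pairs, the 5 greatest falls and rises among calls without overlap (no member rose), and the 3 highest and lowest per kb; Rps9, Rps2, Rps3, Rpl8 and the retrogenes were added after their values were seen. A few genes met this rule but their values are left out of the text. The members and lists were chosen with earlier results of these data known. Alternatives were other pseudocounts, filters, scalings, limma settings, voom, length and GC corrections, each sample left out, the replicate number as a block, thresholds, and added pseudogenes; removal of coding length and matching of pseudogenes by sequence were added after seeing the data.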

Additional observations from a re-analysis of the deposited data

How the results depend on the processing

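The members' calls rested little on processing: across 24 alternative fits, 76 to 84 were called lower and 0 higher, and the median log2 fold change stayed between −0.83 and −1.24. Leaving out each sample in turn gave 79 to 84 members lower and 0 higher each time, medians of −1.24 to −0.89 (large −1.19 to −0.85, small −1.31 to −0.93), a share ratio of melatonin over vehicle of 0.466 to 0.570, a large to small ratio of 1.08 to 1.12, and 2711 to 3621 genes lower and 2739 to 3449 higher over all genes. At an adjusted p under 0.01, 76 members were lower, with 2267 genes lower and 2188 higher in all against 3565 and 3529; a log2 fold change of at least 0.5 left 84 members and 2334 higher genes.

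Same-numbered melatonin and vehicle samples did not deviate together (correlations −0.054, 0.006 and −0.048). With 3 samples a group, these correlations cannot decide whether the numbers pair the samples. With the replicate block 83 members were lower (median −1.07) with 3278 genes lower and 3160 higher in all. With transcript length removed as well, 76 members were lower (median −0.83). Among the 30 named members, 25 single values lost their call: the lost calls were those of Rps6, Rpl10, Rpl22l1, Rpl29 and Rps27l. Rps27l was lost with transcript length removed and the replicate block (adjusted p = 0.0740; range 0.000366 to 0.0740). With transcript length removed, the log2 fold changes of Rpl22l1 (−0.16), Rps27l (−0.27), Rplp1 (−0.32), Rps6 (−0.41), Rpl10 (−0.45), Rpl41 (−0.51), Rpl22 (−0.76), Rpl36a (−0.76), Rps27 (−0.78) and Rps28 (−0.99) were smaller in size than those reported. The fits that leave out a sample assume the remaining ones vary alike.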
